A study of Fragaria vesca with 9 samples.

Results

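NAC proteins are a large plant family of transcription factors that share the NAM domain (Pfam PF02365), the part of the protein that binds DNA and lets NAC proteins pair with each other. In other plants they set organ boundaries, build the secondary walls of vessels and fibres, answer drought and abscisic acid, and drive leaf ageing and the ripening of fleshy fruit. Some are held in a membrane and enter the nucleus only after they are cut free. In fruits of woodland strawberry, Fragaria vesca, the family was taken as every listed gene whose description carries PF02365, which gave 123 of 34777 genes. The rule used the annotation and no measured value, but the family was singled out with earlier results of these data known.

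The study sequenced polyadenylated RNA from fruits collected 26 days after anthesis, in 3 libraries each of wild type and of the mutant genotypes Fvmate51-1 (line 1) and Fvmate51-2 (line 2), whose libraries are titled crfvmate51_1 and crfvmate51_2. The labels do not explain the prefix. Both lines are mutants of FvMATE51, which the title places in the vacuolar membrane, and wild type carries neither mutation. The sources used here do not state how the alleles were made, what they change, whether replicates were separate plants, or which listed gene is FvMATE51, so its own level was not checked. The p-values therefore reflect variation among these libraries, possibly technical only. Values are FPKM, in which the authors divided fragments by gene length and library size.

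The libraries held 31587667 to 51649115 fragments in listed genes. Line 1 replicate 2 stood apart, with 10.1% of its fragments outside the listed genes against 0.1 to 4.59% in the other 8 libraries, and wild type replicate 3 stood apart in depth, with 51649115 fragments. The labelled tissue was fruit. Of 29 genes that mark achenes, the seed-bearing fruitlets on the surface, 3 were at 0 in all libraries. Their summed level was 362 to 458 FPKM in wild type, 352 to 457 in line 1 and 332 to 394 in line 2. That sum includes vicilin-like FvH4_1g13730, which rose from 26.7 ± 3.23 FPKM (SD) to 40.6 ± 4.21 in line 1 and 94.2 ± 4.33 in line 2. Of the 15 achene genes tested, 9 were lower and 2 higher with both lines as 1 group against wild type. Over all tested genes, 18.1% were lower and 16.8% higher in that comparison. Line 1 alone had 2 lower and 2 higher, where 19% of all tested genes were lower and 16.5% higher. Line 2 alone had 10 lower and 2 higher, where 15.1% of all tested genes were lower and 15.3% higher. The part of these genes in the NAC results was not tested.

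Most of the family was silent or nearly so. No fragment was listed in any of the 9 libraries for 42 of the 123 NAC genes (34.1%, against 25.7% of all listed genes). Another 46 had some fragments but did not reach 1 FPKM in 3 libraries. The other 35 genes, 28.5% of the family against 45.7% of all listed genes, passed that filter and were tested, with a median wild type level of 6.99 FPKM (8.62 over all tested genes). Among the silent genes were 13 of 25 whose best Swiss-Prot match is a secondary wall or xylem NAC, among them all 4 genes matched to NAC043, an Arabidopsis switch for fibre walls. By contrast, all 7 genes matched to stress and abscisic acid NACs had fragments and 6 of them were tested. These groups follow the wording of the match, with 6 groupings corrected after the data were seen. FvH4_5g29430, whose match is named NAC domain-containing protein 2 like that of stress member FvH4_2g27430, was at 0 and lies outside this group. At least 1 fragment is needed for a value above 0, so a gene at 0 may still be transcribed below that level.

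A few genes held most of the family's RNA per unit length. The 6 most abundant members, each above 100 FPKM on average, made up 83.9 to 89% of the summed NAC level in every library. FvH4_3g20700 alone made up 43.5 to 55.3%. It lies on chromosome 3, from 13762068 to 13763944 in the authors' coordinates (build not stated in the sources used here). It ranked 28th of all listed genes by mean level. Its closest Swiss-Prot match is NAC transcription factor 56 of Arabidopsis, which acts in seed coat development. Coordinates below come from the same listing.

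**Figure D1:**
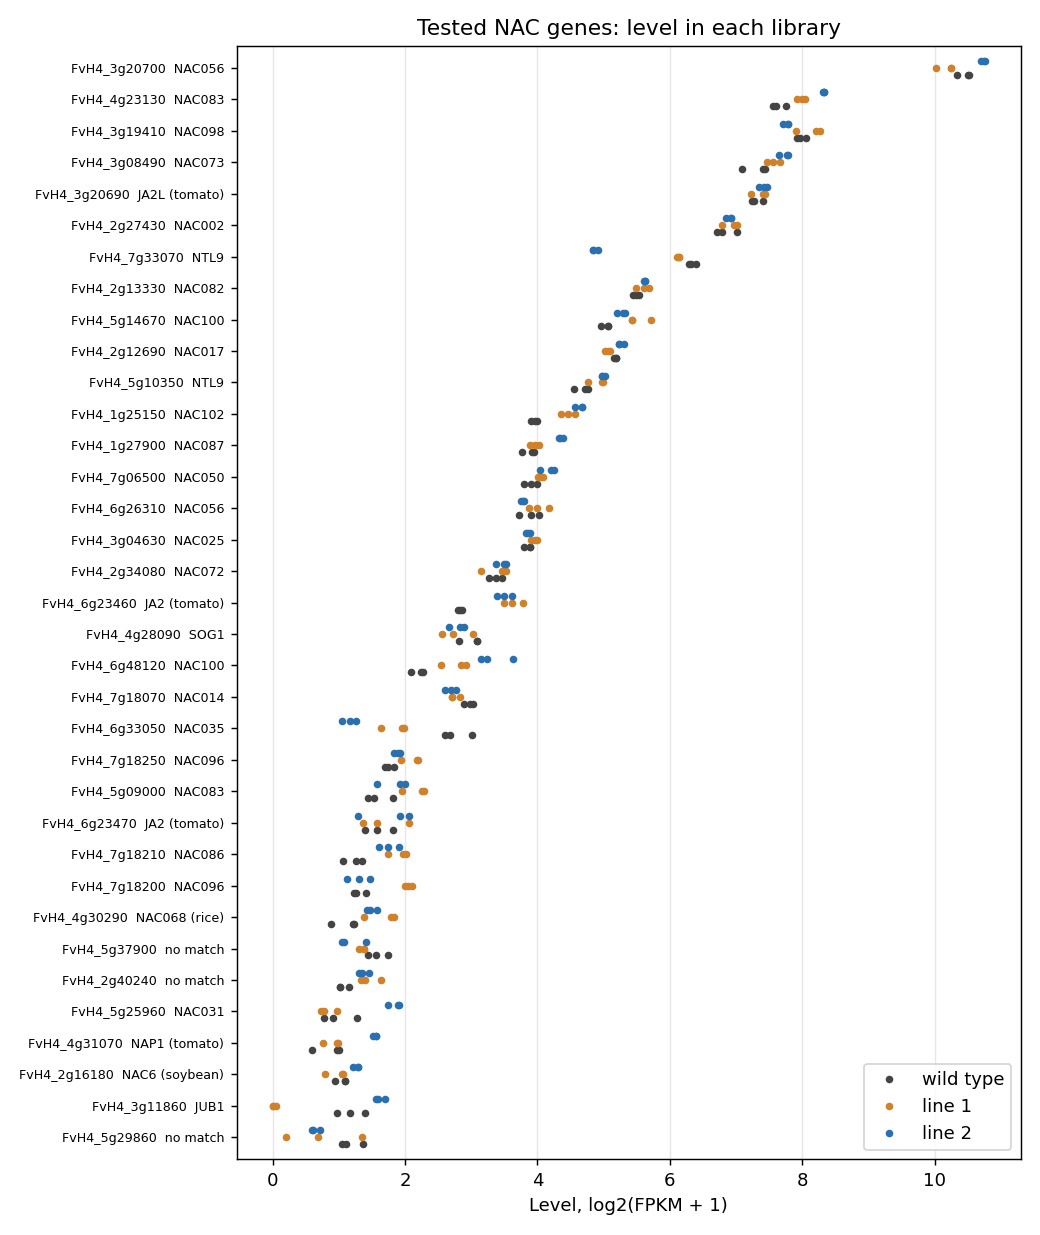
Level of each of the 35 tested NAC genes, as log2(FPKM + 1), with 1 point per library and genes ordered by mean level. Names after each ID are Swiss-Prot matches, of Arabidopsis unless a species is given; FvH4_3g20700 sits apart at the top, and FvH4_3g11860 is at or near 0 in line 1.

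The order of the next levels was set by FvH4_4g23130 (matched to NAC083), FvH4_3g19410 (CUP-SHAPED COTYLEDON 2), FvH4_3g08490 (NAC073), FvH4_3g20690 (tomato JA2L) and FvH4_2g27430 (NAC002). In wild type FvH4_3g19410, at 252 ± 11.5 FPKM (SD, n = 3), stood above FvH4_4g23130 at 198 ± 14.3. FvH4_3g08490 (158 ± 20.5) and FvH4_3g20690 (157 ± 9.77) did not differ beyond their spread. In line 2 the first of these places changed hands: FvH4_4g23130 stood at 319 ± 1.75 and FvH4_3g19410 at 215 ± 6.90.

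Fruits of both lines, taken as 1 mutant group, were first set against wild type, to ask which NAC genes differ in fruits of the FvMATE51 mutants. Of the 35 tested members, 16 were higher and 4 lower (limma, with p-values adjusted by Benjamini-Hochberg across the 15890 genes in the test and called under 0.05). That is 57.1% called, where 34.9% of all tested genes were called. The higher calls were 45.7% of the members (16.8% of all genes) and the lower calls 11.4% (18.1%). The median log2 change was 0.12 over the members and 0.00 over all tested genes. The median absolute log2 change was 0.31 over the members and 0.20 over all tested genes. On the log2(FPKM + 1) scale 1 called member changed by at least 2-fold. By each line's own test, 1 called member did so in line 1 and 3 in line 2. The share of all tested genes that did so was not counted. In these bulk fruits, fewer cells of a type and less RNA per cell cannot be told apart. Without wild type replicate 2, 10 members were higher and 2 lower, and without wild type replicate 3, 2 were lower.

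Each line on its own gave a similar number of calls, and each shares the same wild type libraries. Line 1 had 11 members higher and 4 lower, 42.9% of those tested against 35.5% of all genes (16.5% higher and 19% lower). Line 2 had 13 higher and 4 lower, 48.6% against 30.4% (15.3% higher and 15.1% lower). In line 1 the count of lower members was 2 without wild type replicate 1 or 2, or without line 1 replicate 1 or 3. In line 2 it was 2 without wild type replicate 2 or 3, or without line 2 replicate 3. When the FPKM sums of all libraries were made equal, line 1 had 14 members higher and 2 lower, so the higher share of its calls was 87.5% and not 73.3%. The same rescaling moved that share over all tested genes from 46.4% to 61.8%.

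**Figure D2:**
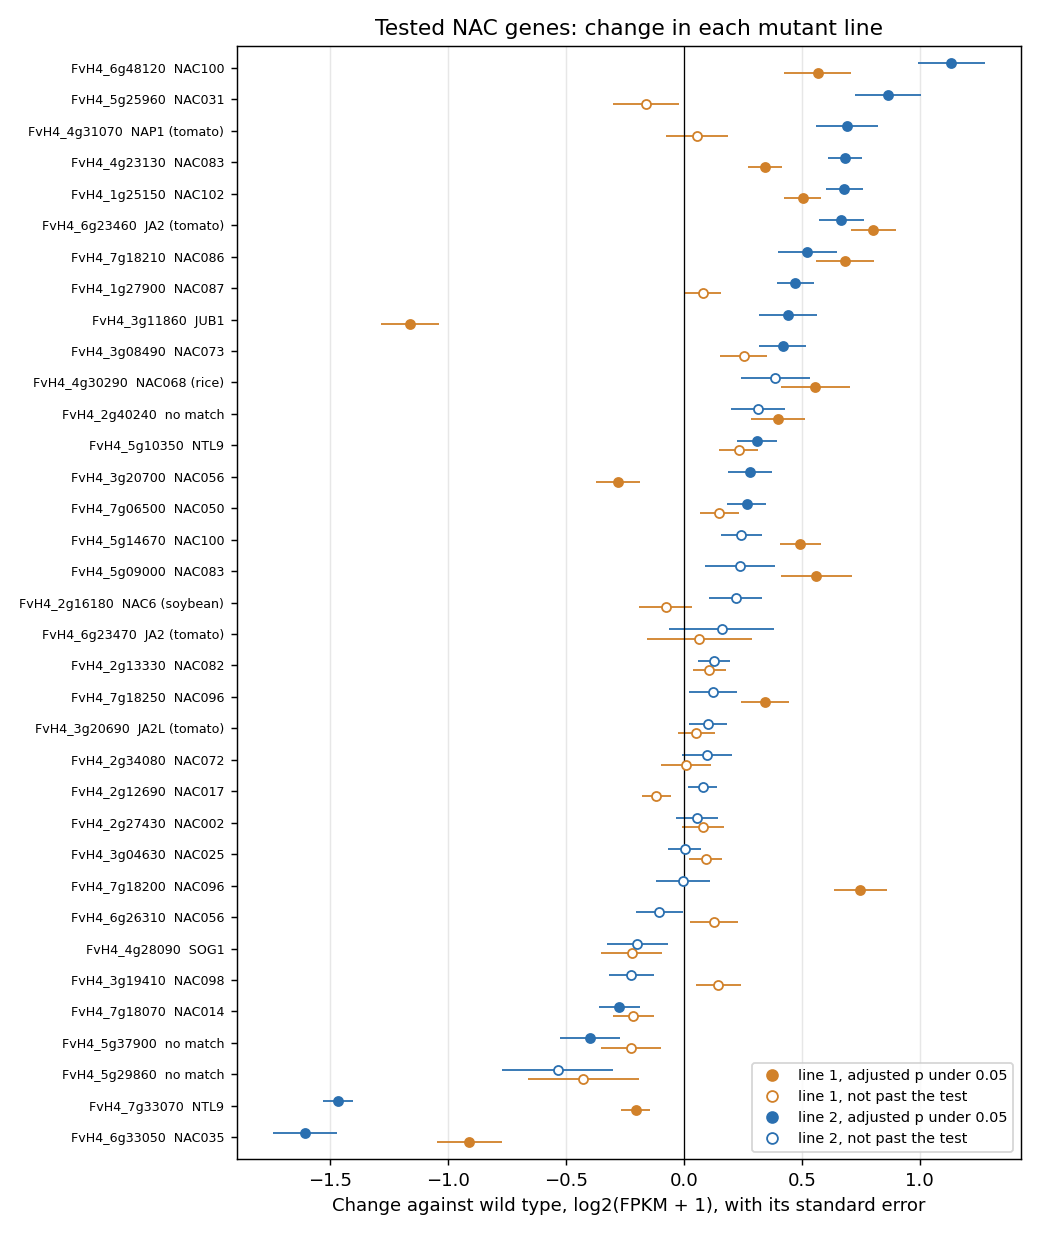
Change of each tested NAC gene in line 1 and in line 2 against wild type, in log2(FPKM + 1), with its standard error; filled points passed the test. The largest falls are FvH4_6g33050 and FvH4_7g33070 in line 2, and FvH4_3g11860 and FvH4_3g20700 have filled points on opposite sides of 0.

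Among senescence and ripening NACs, the abundant FvH4_3g20700 moved in opposite directions in the lines. It measured 1461, 1442 and 1288 FPKM in wild type replicates 1 to 3, 1215, 1031 and 1211 in line 1, and 1703, 1725 and 1662 in line 2. All line 1 libraries were below, and all line 2 libraries above, every wild type library. Line 2 was 1.47-fold line 1 in mean FPKM, a log2 difference of 0.56 ± 0.09 (SE; limma adjusted p = 0.00117). Against wild type it fell by 0.28 in line 1 (adjusted p = 0.0391) and rose by 0.28 in line 2 (adjusted p = 0.0423). These 2 calls were weak. The line 1 call ended when any library but wild type replicate 3 was left out (adjusted p up to 0.111), and with the FPKM sums made equal (adjusted p = 0.185). The line 2 call ended when any library but line 1 replicate 2 was left out (adjusted p up to 0.12). With no filter on low values neither held (adjusted p = 0.127 and 0.137). Its second copy by match, FvH4_6g26310, stood at 13.8 ± 1.51 in wild type, with 15.2 ± 1.75 in line 1 and 12.7 ± 0.238 in line 2, and passed no test.

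FvH4_3g11860, matched to JUNGBRUNNEN 1, a hydrogen peroxide-induced factor that delays ageing in Arabidopsis, was almost lost in line 1. It lies on chromosome 3 (7002398 to 7004540). Wild type libraries gave 0.955, 1.25 and 1.63 FPKM. Line 1 gave 0, 0.0367 and 0, from 2 fragments in all against 277 in wild type and 382 in line 2, and line 2 gave 1.95, 2.03 and 2.25. No group overlapped another. Per fragment sequenced, wild type was 120-fold line 1 (exact 95% counting interval 32.8 to 994) and line 2 was 191-fold (52.5 to 1583), intervals that cover counting error only. The log2 changes were -1.16 ± 0.12 in line 1 (limma adjusted p = 5.99e-05) and 0.44 ± 0.12 in line 2 (adjusted p = 0.0213). The line 2 rise was no longer called without wild type replicate 1 or 2 or line 2 replicate 2 or 3 (adjusted p up to 0.0782), with a pseudocount of 0.1 FPKM (0.0798) or with voom on recovered fragments (0.0543). Both lines together were called lower (adjusted p = 0.0252), a mean of opposite changes that was not called without wild type replicate 2 or 3 or line 2 replicate 1 (up to 0.108).

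Some genes listed on either side of FvH4_3g11860 kept fragments in line 1. At lower coordinates FvH4_3g11840, an RNA-binding protein gene, averaged 10.7 FPKM in wild type, with 14.6 in line 1 and 11.2 in line 2, and was called higher in line 1 (limma adjusted p = 0.00141). FvH4_3g11820, which has no Swiss-Prot match, averaged 15.5, 11.3 and 10.2 and was called lower in both lines (adjusted p = 0.0418 and 0.0141). On the other side FvH4_3g11870, which has no Swiss-Prot match, averaged 2.02, 1.76 and 1.73 and passed no test. Further along, FvH4_3g11890, matched to ROOT HAIR DEFECTIVE 3 homolog 2, averaged 57.0, 57.5 and 62.6 and passed no test either. The immediate neighbours FvH4_3g11850 and FvH4_3g11861 were below 1 FPKM in every group.

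The other senescence and ripening members were tomato NAP1-like FvH4_4g31070 and NAC025-like FvH4_3g04630. FvH4_4g31070 gave 0.974, 0.507 and 0.999 FPKM in wild type, with 0.992, 0.971 and 0.696 in line 1, and 1.97, 1.95 and 1.86 in line 2. The line 2 libraries were all above the other 6, and it was higher in line 2 than in wild type (log2 change 0.69 ± 0.13, limma adjusted p = 0.00281) and than in line 1 (0.64, adjusted p = 0.0044). Its call over both lines ended without wild type replicate 2, line 1 replicate 1 or line 2 replicate 1 or 2 (adjusted p up to 0.115). FvH4_3g04630 was level, at 13.5 ± 0.549, 14.4 ± 0.488 and 13.5 ± 0.297 FPKM in wild type, line 1 and line 2.

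**Figure D3:**
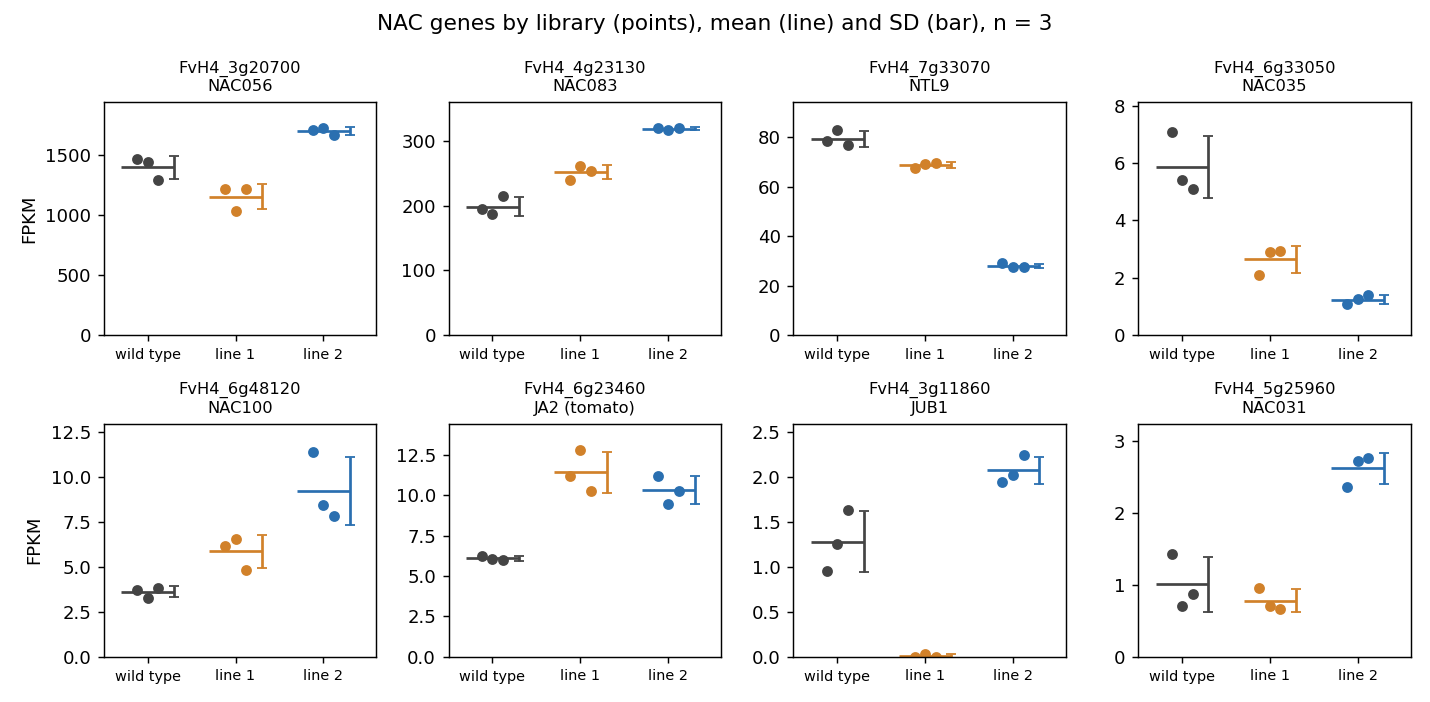
FPKM of 8 NAC genes in each library (points), with the group mean (line) and SD (bar), n = 3, each axis starting at 0. FvH4_4g23130 and FvH4_6g48120 are higher in both lines, FvH4_7g33070 and FvH4_6g33050 lower, and FvH4_3g11860 is near 0 in line 1 and highest in line 2.

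All 3 tested genes matched to secondary wall and xylem NACs, of 25 listed, were higher over both lines. In that comparison 16.8% of all tested genes and 45.7% of the tested NAC genes were higher. By each line's own test, 2 of the 3 were higher in line 1 and 2 in line 2. FvH4_4g23130, matched to NAC083 (VNI2, a repressor of vessel formation in Arabidopsis; chromosome 4, 25715722 to 25717702), measured 194, 187 and 214 FPKM in wild type, with 240, 262 and 254 in line 1, and 320, 317 and 320 in line 2. The groups did not overlap and stood in that order. It rose by a log2 value of 0.34 ± 0.07 in line 1 (limma adjusted p = 0.0048) and 0.68 ± 0.07 in line 2 (adjusted p = 5.41e-05), and the lines differed (adjusted p = 0.00529). FvH4_3g08490, matched to NAC073 (SND2, an activator of secondary wall genes), rose in line 2 from 158 ± 20.5 to 211 ± 11.1 FPKM (adjusted p = 0.00958). In line 1 it stood at 188 ± 12.1 (adjusted p = 0.0698). FvH4_5g09000, the other NAC083 match, rose in line 1 from 2.05 ± 0.434 to 3.50 ± 0.538 (adjusted p = 0.0152, and 0.0536 without line 1 replicate 1). In line 2 it stood at 2.6 ± 0.532. Its call over both lines (adjusted p = 0.0354) ended without wild type replicate 1 or 2, line 1 replicate 1 or 2, or line 2 replicate 1 or 3 (up to 0.123).

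Genes that such factors control in other plants were taken from a list of 36 secondary wall and xylem genes, of which 8 were tested. Of these, 3 were higher (37.5%, against 16.8% of all genes) and 0 lower over both lines, with a median log2 change of 0.26. Cellulose synthase A subunit 8 FvH4_3g07420 rose from 17.5 ± 2.67 FPKM to 41.4 ± 2.33 in line 1 and 28.2 ± 0.199 in line 2 (limma adjusted p = 2.52e-05). The phenylpropanoid regulator MYB63-like FvH4_3g15320 rose from 1.89 ± 0.488 to 3.85 ± 0.355 and 5.41 ± 0.299. Laccase-11-like FvH4_2g08860 rose from 0.268 ± 0.162 to 1.67 ± 0.498 in line 1 and stood at 1.03 ± 0.834 in line 2 (adjusted p = 0.093). The summed level of the list was 34.6 to 38.1 FPKM in wild type, 64.0 to 70.5 in line 1 and 51.4 to 53.9 in line 2. Much of the difference was FvH4_3g07420: the other 35 genes summed to 18.1 to 20.2 FPKM in wild type, to 25.3 to 27.6 in line 1 and to 23.2 to 25.5 in line 2. Cellulose synthase subunits 4, 7 and 8 served as xylem markers, and among their matches only FvH4_3g07420 was abundant. The matches to subunits 4 and 7 were below 0.21 FPKM in every library. The other subunit 8 matches, FvH4_5g20560 and FvH4_5g20590, were at 0 in every library. Of the 36 genes, 11 were at 0 throughout. The part of xylem content in the NAC results was not tested.

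Of the 5 tested members matched to meristem, boundary and root cap NACs, 4 were higher over both lines and 0 lower. In that comparison 16.8% of all tested genes and 45.7% of the tested NAC genes were higher. By each line's own test, 2 of the 5 were higher in line 1 and 3 in line 2. FvH4_6g48120, matched to NAC100 (a target of the microRNA miR164 in Arabidopsis; chromosome 6, 36301058 to 36302827), gave the largest called rise of the family over both lines on the log2(FPKM + 1) scale. It measured 3.72, 3.27 and 3.85 FPKM in wild type, with 6.19, 6.57 and 4.84 in line 1, and 11.4, 8.42 and 7.85 in line 2. The groups did not overlap, and mean FPKM was 1.62-fold wild type in line 1 (limma adjusted p = 0.0114) and 2.55-fold in line 2 (adjusted p = 0.000172). The lines differed by 0.57 ± 0.14 (adjusted p = 0.0125, and 0.0507 without line 1 replicate 3). The more abundant NAC100 match, FvH4_5g14670, rose in line 1 from 31.6 ± 1.26 to 45.1 ± 5.35 (adjusted p = 0.00173) and stood at 37.6 ± 1.70 in line 2 (adjusted p = 0.0576).

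CUP-SHAPED COTYLEDON genes mark the borders between organs. FvH4_5g25960, matched to CUP-SHAPED COTYLEDON 3 (NAC031 in the plots; chromosome 5, 17465354 to 17468430), stood at 1.43, 0.71 and 0.874 FPKM in wild type, with 0.963, 0.709 and 0.663 in line 1, and 2.36, 2.72 and 2.76 in line 2. Line 2 lay above both other groups, which overlapped. It was 2.6-fold wild type (limma adjusted p = 0.00111) and 3.36-fold line 1 (adjusted p = 0.000332). Its call over both lines (adjusted p = 0.0467) ended without any 1 library except wild type replicate 1 (up to 0.179), with no filter (0.0744), with a pseudocount of 0.1 FPKM (0.0832) and with voom (0.056). The abundant CUP-SHAPED COTYLEDON 2 match FvH4_3g19410 (NAC098 in the plots) passed the test only between the lines, lower in line 2 (log2 difference -0.37 ± 0.10, adjusted p = 0.0151). That call ended without line 1 replicate 1 or 3 or line 2 replicate 1 (up to 0.0638). FvH4_1g27900, matched to NAC087, which acts in root cap cell death, was 13.7 ± 1.00 in wild type and 14.6 ± 0.797 in line 1. It was 19.4 ± 0.504 in line 2, higher than wild type (adjusted p = 0.0012) and than line 1 (adjusted p = 0.00364).

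Stress and abscisic acid NACs included both called and level members. FvH4_6g23460, matched to tomato JA2, an abscisic acid-induced factor that closes stomata (chromosome 6, 17520701 to 17522304), measured 6.25, 6.09 and 5.97 FPKM in wild type. It gave 11.2, 12.8 and 10.3 in line 1, and 11.2, 9.48 and 10.2 in line 2. Every mutant library was above every wild type library, with log2 changes of 0.80 ± 0.10 (limma adjusted p = 0.000131) and 0.67 ± 0.10 (adjusted p = 0.000439). The lines overlapped (log2 difference -0.13 ± 0.10, adjusted p = 0.336). Its neighbour FvH4_6g23470, also a JA2 match, stood at 2.05 ± 0.451, 2.24 ± 0.820 and 2.48 ± 0.898 and passed no test.

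FvH4_1g25150, matched to NAC102, which helps Arabidopsis seeds germinate under low oxygen (chromosome 1, 16950650 to 16953023), rose in both lines. Wild type gave 14.6, 14 and 14.9 FPKM, line 1 gave 19.4, 22.8 and 21, and line 2 gave 24.4, 24.6 and 22.7. Both lines lay above wild type (limma adjusted p = 0.000791 and 9.97e-05). The other stress members by match include 3 that were not called in any comparison. The JA2L match FvH4_3g20690 held 157 ± 9.77, 163 ± 12.4 and 169 ± 7.42 FPKM in wild type, line 1 and line 2. The NAC002 (ATAF1) match FvH4_2g27430 held 114 ± 12.2, 120 ± 9.56 and 118 ± 3.69. The NAC072 (RD26) match FvH4_2g34080 held 9.35 ± 0.664, 9.47 ± 1.38 and 10.1 ± 0.581. For each of these the group means lay within the spread of the libraries.

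Among membrane-tethered NACs, 2 genes with the same match went opposite ways in line 2. FvH4_7g33070, matched to NTM1-like 9, a calmodulin-binding NAC of Arabidopsis (chromosome 7, 23624928 to 23627875), measured 78.4, 83 and 76.8 FPKM in wild type. It gave 67.5, 69.2 and 69.6 in line 1, and 29, 27.6 and 27.7 in line 2. The 3 groups were fully separate, and line 2 was at 0.354-fold wild type (log2 change -1.47 ± 0.06, limma adjusted p = 6.77e-08) and 0.409-fold line 1 (adjusted p = 1.48e-07). The smaller fall in line 1 (log2 change -0.20 ± 0.06, adjusted p = 0.0278) was not called with equal FPKM sums (adjusted p = 0.339), with voom (0.119), with only the groups compared (0.0819), or without wild type replicate 1 or 2 or line 1 replicate 1 or 3 (up to 0.0934).

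The second NTM1-like 9 match, FvH4_5g10350, was higher in line 2, at 24.6 ± 1.88 FPKM in wild type, with 29.1 ± 2.53 in line 1 and 30.7 ± 0.601 in line 2. Line 2 differed from wild type with an adjusted p of 0.0181 in limma, which became 0.0645 without line 2 replicate 2 and 0.0527 without line 2 replicate 1. Over both lines it was 0.0161, and 0.0508 without wild type replicate 3. FvH4_2g12690, matched to NAC017, which carries signals from stressed mitochondria to the nucleus, differed only between the lines, at 32.3 ± 0.808 in line 1 and 37.2 ± 1.15 in line 2 (adjusted p = 0.0364). That call ended without any 1 library except wild type replicate 3 (up to 0.149), with equal FPKM sums (0.299), with voom (0.224) and without trend (0.0621).

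The largest fall over both lines was that of FvH4_6g33050, matched to NAC035 (LOV1, a regulator of flowering time and cold response in Arabidopsis; chromosome 6, 26105397 to 26108587). It measured 7.10, 5.42 and 5.09 FPKM in wild type, with 2.11, 2.89 and 2.95 in line 1, and 1.08, 1.26 and 1.39 in line 2. No library of one group reached another group. Line 1 was at 0.452-fold and line 2 at 0.212-fold wild type (log2 changes -0.91 ± 0.14 and -1.61 ± 0.14, limma adjusted p = 0.000652 and 1.13e-05). The lines differed by -0.70 (adjusted p = 0.00337). These calls held in every alternative in which the gene was tested.

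Of the remaining members, FvH4_4g30290, matched to rice NAC068, rose in line 1 from 1.17 ± 0.285 to 2.2 ± 0.517 FPKM (limma adjusted p = 0.0141, and 0.0531 without line 1 replicate 1). It stood at 1.82 ± 0.157 in line 2, and its call over both lines (0.0158) became 0.0678 without wild type replicate 2. FvH4_7g06500, matched to NAC050, a partner of a histone demethylase in Arabidopsis, stood at 13.9 ± 0.997, 15.6 ± 0.430 and 17 ± 1.34. Its calls for line 2 (adjusted p = 0.0337) and for both lines (0.0452) ended without wild type replicate 2 or 3, line 1 replicate 1 or line 2 replicate 2 or 3 (up to 0.124 and 0.132), and the second also without line 1 replicate 3.

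The NAC082 match FvH4_2g13330, of the response to ribosome stress, held 43.9 ± 1.48, 47.4 ± 3.24 and 48 ± 0.0916 FPKM and was not called. A gene listed on the other strand, FvH4_2g13320, overlaps it by 1016 bases, and the sources do not say whether strand was used in counting. The DNA damage regulator SOG1 match FvH4_4g28090 (6.99 ± 0.858, 5.89 ± 1.12 and 5.96 ± 0.540) and the soybean NAC6 match FvH4_2g16180 (1.07 ± 0.119, 0.962 ± 0.203 and 1.40 ± 0.0636) passed no test either. A second SOG1 match, FvH4_6g51660, stayed between 0.347 and 0.773 FPKM and was not tested.

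There were 23 members without a Swiss-Prot match, of which 11 were at 0 throughout and 3 were tested. FvH4_2g40240 was higher in line 1, from 1.09 ± 0.121 to 1.76 ± 0.319 FPKM (limma adjusted p = 0.0209), and stood at 1.60 ± 0.143 in line 2. The line 1 call ended without wild type replicate 1 or line 1 replicate 2 (up to 0.0627), and the call over both lines (0.0183) without wild type replicate 1 or 3 (up to 0.0557). FvH4_5g37900 was lower in line 2, from 2.00 ± 0.324 to 1.28 ± 0.332 (adjusted p = 0.0379). That call was kept only without wild type replicate 1, line 1 replicate 2 or line 2 replicate 1 among the fits without 1 library (up to 0.131 in the others). FvH4_5g29860 ran from 0.151 to 1.57 FPKM and was not called, with line 1 libraries at 0.151, 1.56 and 0.610.

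Some NAC genes lay near each other, with other genes between some of them. Taking members that lie within 100 kb of the previous one, 49 of the 123 fell into 20 runs, and 13 of these runs held no tested gene. The abundant pair on chromosome 3, FvH4_3g20690 and FvH4_3g20700, was such a run, with 1 member level and the other different between the lines. The longest run held 9 members on chromosome 7, from FvH4_7g17950 to FvH4_7g18260, of which 4 were tested. How reads shared by near-identical copies were counted is not stated, so values of close copies in such runs are uncertain.

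Tested members of the chromosome 7 run differed in their pattern. FvH4_7g18200, matched to NAC096, which acts in the dehydration response, gave 1.40, 1.34 and 1.67 FPKM in wild type, with 3, 3.12 and 3.31 in line 1, and 1.76, 1.47 and 1.19 in line 2. Line 1 was above all other libraries (limma adjusted p = 0.000636 against wild type and 0.000589 between the lines), while line 2 and wild type overlapped. Its call over both lines was lost without wild type replicate 2 (0.0536). FvH4_7g18210, matched to NAC086, which acts in the loss of the nucleus from sieve elements, rose in both lines, from 1.35 ± 0.230 to 2.77 ± 0.357 and 2.38 ± 0.354 (adjusted p = 0.00201 and 0.00941). The second NAC096 match, FvH4_7g18250, was higher in line 1 only by its own test, at 2.39 ± 0.170, 3.31 ± 0.422 and 2.69 ± 0.115 (adjusted p = 0.0247). That call ended without wild type replicate 2 or 3 or line 1 replicate 1 or 2 (up to 0.0898). It was not called different between the lines (adjusted p = 0.137).

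The fourth, FvH4_7g18070, matched to the membrane-bound NAC014, went the other way, at 6.81 ± 0.353 FPKM in wild type, with 5.74 ± 0.336 in line 1 and 5.46 ± 0.401 in line 2. It was lower in line 2 (limma adjusted p = 0.0358) and over both lines (0.0292). With equal FPKM sums these became 0.0556 and 0.0858. The line 2 call ended without wild type replicate 2 or 3, line 1 replicate 1 or line 2 replicate 1 or 3 (up to 0.134), and the call over both lines without these or line 1 replicate 3 (up to 0.0806).

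**Figure D4:**
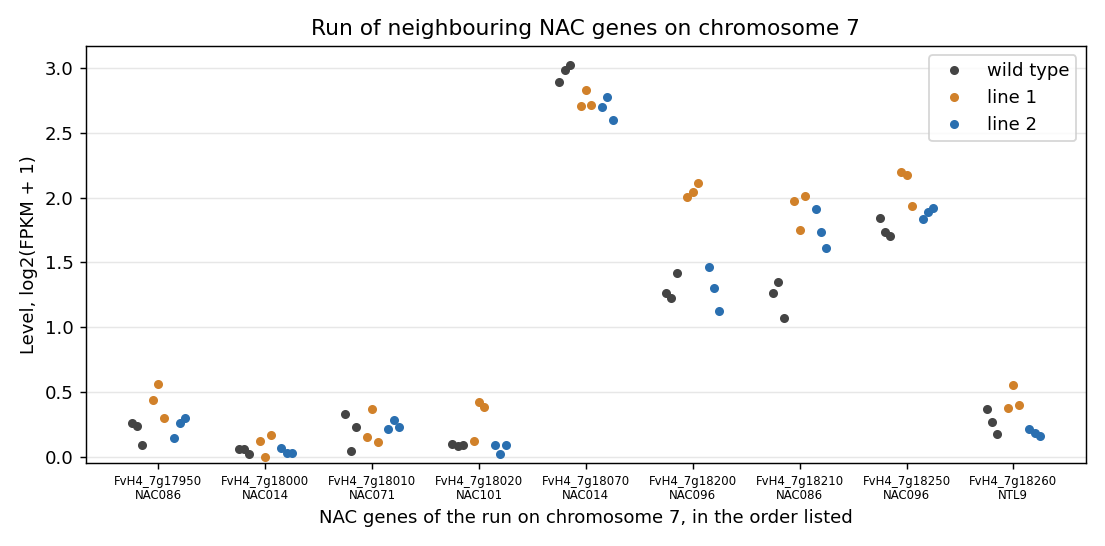
Level of the 9 NAC genes of the chromosome 7 run in each library, as log2(FPKM + 1), in the order they are listed along the chromosome. By each line's own test FvH4_7g18200 and, less securely, FvH4_7g18250 are higher in line 1 only, and FvH4_7g18210 is higher in both lines. FvH4_7g18070 is below wild type, past the test in line 2, while the outer genes stay near 0.

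The lines were also compared with each other, which tests whether their changes differ. Line 2 had 8 members higher and 4 lower than line 1, 34.3% of those tested against 27.6% of all genes (15.4% higher and 12.2% lower). With voom on recovered fragments 7 were higher and 6 lower, a higher share of 53.8% and not 66.7%, while over all tested genes it went from 55.9% to 41.7%. The calls ran from -1.26 ± 0.06 for FvH4_7g33070 to 1.60 ± 0.12 for FvH4_3g11860 on the log2 scale. Of the 5 tested senescence and ripening members by match, 3 were called, each higher in line 2, and 2 were not called. Of the 6 stress and abscisic acid members, 0 were called.

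Pathways in which NAC proteins act in other plants were followed by word patterns in the Swiss-Prot descriptions, with NAC genes left out. Over 8 such lists, with 171 tested entries, 33 were higher and 37 lower over both lines. These are 19.3% and 21.6%, near the 16.8% and 18.1% of all tested genes, so the lists as a whole are not a result. Of 51 ripening cell wall genes tested, 8 were higher (15.7%) and 19 lower (37.3%), with a median log2 change of -0.16. The pectinesterase FvH4_1g09610, of an enzyme family that prepares pectin for breakdown, fell from 26.4 ± 0.199 FPKM to 9.34 ± 1.74 in line 1 and 6.84 ± 0.681 in line 2 (limma adjusted p = 1.36e-06). Another pectinesterase, FvH4_6g48010, rose from 6.59 ± 0.671 to 14.5 ± 0.636 and 12.3 ± 1.40, and the endoglucanase FvH4_5g03220 rose from 75.9 ± 9.64 to 176 ± 17.8 and 119 ± 5.39.

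Senescence and chlorophyll breakdown genes were called higher for 6 (27.3%) and lower for 3 (13.6%) of the 22 tested, median 0.10, beside 16.8% and 18.1% of all genes. The SAG101 match FvH4_6g50160, a defence and ageing protein, rose from 27.2 ± 1.60 FPKM to 94.5 ± 7.34 and 100.5 ± 5.07 (limma adjusted p = 2.89e-08). STAY-GREEN FvH4_5g01230, which starts chlorophyll removal, rose from 27.2 ± 0.779 to 37.6 ± 1.34 and 36.6 ± 0.733. Ethylene genes were called higher for 5 (22.7%) and lower for 2 (9.09%) of the 22 tested, median 0.09. The 1-aminocyclopropane-1-carboxylate oxidase 1 match FvH4_3g01280, of the last step of ethylene synthesis, stood at 45.3 ± 2.24 in wild type, with 45.3 ± 1.47 in line 1 and 108 ± 2.94 in line 2 (adjusted p = 0.988 and 2.96e-07). Genes matched to a homologue of this oxidase, and not to the oxidase itself, went different ways. FvH4_4g03250 rose in both lines, from 6.915 ± 0.186 FPKM to 20.1 ± 1.66 and 25.4 ± 1.81 (limma adjusted p = 1.19e-07 over both lines). FvH4_5g19310, with the same match, stood at 3.57 ± 0.298 in wild type, with 0.0203 ± 0.0178 in line 1 and 5.53 ± 0.717 in line 2. Like FvH4_3g11860, FvH4_5g19310 was near 0 in line 1 and highest in line 2.

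Abscisic acid genes were called higher for 3 (12.5%) and lower for 4 (16.7%) of the 24 tested, median -0.05, both shares below those of all genes (16.8% and 18.1%). Zeaxanthin epoxidase FvH4_1g16080, an early step of abscisic acid synthesis, rose from 12.2 ± 0.434 FPKM to 14.5 ± 0.298 and 17.3 ± 0.592 (limma adjusted p = 0.00139). Meristem and organ boundary genes were called higher for 3 (14.3%) and lower for 5 (23.8%) of the 21 tested, median 0.00. The WUSCHEL-related FvH4_3g10130 rose from 3.15 ± 0.263 to 4.56 ± 0.294 and 14.4 ± 0.486, and the knotted-1-like FvH4_6g07460 fell from 48 ± 1.36 to 26.2 ± 0.907 and 27.6 ± 0.872. The mitochondrial retrograde list had 2 of 11 higher and 2 lower (18.2% each, median 0.02). The mitochondrial alternative oxidase FvH4_4g05920 fell from 9.53 ± 1.09 to 6.99 ± 0.538 and 6.49 ± 0.372. Ubiquinol oxidase 4 match FvH4_3g01250, which the list also caught though its description places it in plastids, rose from 9.55 ± 0.366 to 17.2 ± 0.706 and 15.2 ± 0.620. Among DNA damage response genes 3 of 12 were higher (25%) and 2 lower (16.7%), median 0.02. The kinase ATR FvH4_2g15770 rose from 1.42 ± 0.428 to 3.52 ± 0.296 and 2.71 ± 0.247. The cell cycle inhibitor SMR6 FvH4_6g51230 fell from 6.63 ± 0.453 to 1.66 ± 0.827 and 1.98 ± 0.197.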

How the data were processed

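The deposited table holds an FPKM value per gene and library, for which the authors normalised fragments by gene length and sequencing depth. Tools named in the submitters' processing notes, without role or order, were featureCounts 2.0.6, StringTie 2.2.3, HISAT2 2.2.1 and fastp; the genome build, strand setting and handling of shared reads are not given in the sources used here. Multiplying FPKM by gene length gave whole multiples of a single step within each library (100% of values within 0.02 of a whole number), from which fragments were recovered. Values were analysed as log2(FPKM + 1), a scale that understates changes of low genes, after removing genes that did not reach 1 FPKM in 3 of the 9 libraries. Group means of the 3 genotypes were fitted in limma 3.58.1 (R 4.3.3) with a mean-dependent prior and no covariate. Tests were two-sided, with Benjamini-Hochberg adjustment over 15890 genes. SDs are between libraries, and folds are ratios of mean FPKM. The script was tested on simulated data.

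Members and lists were chosen with earlier results of these data known. NAC genes were grouped by the wording of their Swiss-Prot match, and 6 groupings were corrected after the data were seen, where a number belongs to another species or a member is not known for that role. The naming rule took the 12 most abundant members, the largest called changes of each comparison, members called in opposite directions in the lines, and 2 examples per group. The other tested members are also given, chosen after their values were seen, as were the runs of neighbouring genes. Of each pathway list, up to 3 genes with the lowest adjusted p were eligible. The pattern for senescence also caught phospholipase SGR2, and the pollen list had 2 genes tested, 1 of them lower (INAPERTURATE POLLEN1-like FvH4_5g00261). No sequence of these genes was used here.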

Additional observations from a re-analysis of the deposited data

Results flagged for a closer look

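The change of 12 NAC genes differed between the lines by the test of line 2 against line 1 itself, each called by limma. These are 34.3% of the tested members, where 27.6% of all tested genes were called. Values are line 2 minus line 1 in log2(FPKM + 1). Higher in line 2 were the JUNGBRUNNEN 1 match FvH4_3g11860 (1.6), the CUP-SHAPED COTYLEDON 3 match FvH4_5g25960 (1.03), the tomato NAP1 match FvH4_4g31070 (0.64), the NAC100 match FvH4_6g48120 (0.57), the NAC056 match FvH4_3g20700 (0.56), the NAC087 match FvH4_1g27900 (0.39), the NAC083 match FvH4_4g23130 (0.34) and the NAC017 match FvH4_2g12690 (0.2). Lower in line 2 were the NTM1-like 9 match FvH4_7g33070 (-1.26), the NAC096 match FvH4_7g18200 (-0.75), the NAC035 match FvH4_6g33050 (-0.7) and the CUP-SHAPED COTYLEDON 2 match FvH4_3g19410 (-0.37). The calls between the lines of FvH4_2g12690, FvH4_3g19410 and FvH4_6g48120 ended in 12, 3 and 1 of the alternative fits. For FvH4_3g11860 and FvH4_3g20700 the lines lay on opposite sides of wild type in every library.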

How the results depend on the processing

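Of 64 called changes of single NAC genes, 39 kept direction and call in every alternative in which the gene was tested. The other 25 lost the call in at least 1, and 0 changed direction. Genes with a mean under 5 FPKM were not in the fit with that filter. Over the fits that left out 1 library each, higher and lower members numbered 10 to 15 and 2 to 5 for both lines against wild type, 8 to 11 and 2 to 4 for line 1, 9 to 15 and 2 to 6 for line 2, and 6 to 8 and 3 to 5 between the lines. Pathway genes ran from 27 to 36 higher and 29 to 36 lower. With a mean of at least 5 FPKM, which leaves 21 NAC genes, 9 were higher and 2 lower over both lines, 5 and 2 in line 1, 9 and 2 in line 2, and 5 and 2 between the lines, and 24 pathway genes were lower. With no filter, 7 members were lower in line 2 than in line 1. In line 1, 2 members were lower with equal FPKM sums and with only the groups compared (the cause was not tested). Replicate numbers did not pair the libraries (residual correlations of same-numbered libraries -0.262 to 0.164), and the replicate block gave 13 higher and 3 lower over both lines, 12 and 2 in line 1, 11 and 2 in line 2, and 7 and 4 between the lines. Without the 2 libraries that stood apart, 15 were higher and 4 lower over both lines. The planned count test was not run, because the deposited unit is not a count; voom on recovered fragments was added after seeing the data. Only the groups compared could not be used for both lines together.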

Other observations

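All 3 NAC genes matched to JUNGBRUNNEN 1 were higher in line 2 than in line 1. Of these, 2 were too low to be tested and were called only with no filter on low values. In that fit 10 of 81 NAC genes were higher and 7 lower in line 2 than in line 1. Over all 25855 genes of that fit, 2510 were higher and 2263 lower. FvH4_3g15610 had group means of 0.010 (wild type), 0.0236 (line 1) and 0.384 FPKM (line 2) (limma adjusted p = 5.98e-05 between the lines, no filter). FvH4_6g38750 averaged 0.236, 0.131 and 0.513 (adjusted p = 0.0325). Other members under the filter were higher in line 1 than in line 2, namely the NAC086 match FvH4_1g27330 (0.222 and 0.0190 FPKM), the NAC101 match FvH4_7g18020 (0.244 and 0.0491) and the NTM1-like 9 match FvH4_7g18260 (0.361 and 0.138), the last 2 from the chromosome 7 run. These genes were picked after their values were seen.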
